A study of Homo sapiens with 6 samples.

Results

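The interferon-stimulated genes described here are 45 genes that cells switch on in response to interferon, taken by symbol from a given list. All 45 were found among the 50868 genes with values. Their RNA was measured in UM-UC-3 and 5637, 2 established human bladder cancer cell lines that stably carried 1 of 3 lentiviral short hairpins after puromycin selection for 2 weeks. The hairpins were a negative control (sh-NC) and 2 aimed at LNMAT1, a long non-coding RNA listed as LINC01296, which are called sh-LNMAT1#1 and sh-LNMAT1#2 or, beside values, #1 and #2. There were 6 libraries, 1 for each hairpin in each line, and every cell line carried a hairpin vector and had gone through infection and selection. With 1 library per hairpin and line, a hairpin and its library cannot be told apart, and no difference between single libraries can be checked by a replicate. In bulk RNA, fewer cells that express a gene and less RNA of it per cell cannot be told apart either.

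Interferons are secreted proteins that cells release on sensing foreign or misplaced RNA and DNA. Type I interferon binds a receptor whose kinases JAK1 and TYK2 phosphorylate STAT2, which joins IRF9 in a complex that binds the interferon-stimulated response element in the promoters of target genes. The targets include proteins that bind or degrade viral RNA, sensors that feed back on the pathway, the ubiquitin-like modifier ISG15 and chemokines, and many tumour cell lines keep some of them on without added interferon.

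The response element has a short core of letters that can be looked for in promoters. RefSeq promoters (GRCh38.p14, 250 bases before to 50 after a start) were matched by symbol for 38 of the 45 members, DDX58 under its current symbol. The motif searched was GAAANNGAAA on both strands, the core of the response element, with overlapping matches counted. It was present for 27 of the 38 members (71.1%) and for 4.38% of the 27305 genes with such a promoter. The 7 windows printed are those of members that the results turn on and that overlap no annotated exon, written along the gene's strand with the motif in capitals. The first 5 belong to genes that were lower in UM-UC-3 with sh-LNMAT1#1, and the last 2 to genes that stood higher in the 5637 libraries with sh-LNMAT1.
IFI6, chr1:27672251-27672310, minus strand: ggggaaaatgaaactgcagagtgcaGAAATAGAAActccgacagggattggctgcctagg
IFIT3, chr10:89327816-89327875, plus strand: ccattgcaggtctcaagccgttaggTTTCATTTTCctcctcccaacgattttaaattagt
IFIT1, chr10:89392482-89392541, plus strand: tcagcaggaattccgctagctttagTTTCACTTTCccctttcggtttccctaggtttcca
ISG15, chr1:1013359-1013418, plus strand: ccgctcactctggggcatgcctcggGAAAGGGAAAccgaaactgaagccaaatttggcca
IFIH1, chr2:162318803-162318862, minus strand: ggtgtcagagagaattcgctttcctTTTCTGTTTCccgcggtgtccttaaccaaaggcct
SAMD9, chr7:93118081-93118140, minus strand: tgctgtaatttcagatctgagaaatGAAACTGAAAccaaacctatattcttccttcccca
CXCL10, chr4:76023684-76023743, minus strand: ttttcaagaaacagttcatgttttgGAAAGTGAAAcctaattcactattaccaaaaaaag
These motifs begin 93 bases before the start for IFI6, 156 for IFIT3, 116 for IFIT1, 113 for ISG15, 153 for IFIH1, 136 for SAMD9 and 221 for CXCL10. A match describes the letters and shows no binding.

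The table gives FPKM, fragment counts normalised for gene length and sequencing depth, so levels are comparable between genes per length. Depth lay between 19380000 and 24711000 fragments. LINC01296 was at 14.2 FPKM (sh-NC), 6.20 FPKM (#1) and 6.70 FPKM (#2) in UM-UC-3, and at 11.7 FPKM (control), 4.70 FPKM (#1) and 2.14 FPKM (#2) in 5637. It was therefore lower with either hairpin under both labels, and by a similar amount with both hairpins in UM-UC-3. The library labelled 5637 sh-NC went against its label. Of 5 epithelial markers, 5 were at or above 1 FPKM in both 5637 libraries with sh-LNMAT1, and 0 in that control, as in the UM-UC-3 libraries. Of 4 mesenchymal markers, ZEB1 was at 12.6 FPKM (control), 0.0264 FPKM (#1) and 0.00774 FPKM (#2) under the 5637 label, VIM at 103 FPKM (control), 3.85 FPKM (#1) and 4.14 FPKM (#2), and CDH2 at 21.5 FPKM (control), 8.18 FPKM (#1) and 11.8 FPKM (#2). The last of the 4, FN1, ran the other way, at 0.883 FPKM (control), 109.6 FPKM (#1) and 102 FPKM (#2). In the UM-UC-3 control they were at 12.5, 332, 17.5 and 0.816 FPKM in this order, so the library labelled 5637 sh-NC stood nearer to that control in ZEB1, CDH2 and FN1 than to the other 5637 libraries. In VIM this held for log2(FPKM + 0.5) and not for FPKM. On that log2 scale, VIM in the library labelled 5637 sh-NC differed by -1.68 from UM-UC-3 sh-NC. The other 5637 libraries differed from the library labelled 5637 sh-NC by -4.58 (#1) and -4.48 (#2). In UM-UC-3 sh-LNMAT1#1 the 4 markers were at 12.7, 116, 24.8 and 2.27 FPKM in the same order. Its VIM level was thus near that of the library labelled 5637 sh-NC. Summed over the 4, the levels were 363, 156 and 185 FPKM in UM-UC-3 and 138, 122 and 118 FPKM under the 5637 label, and the sum did not set that library apart. In comparisons with the library labelled 5637 sh-NC, line and hairpin cannot be told apart. Summed leukocyte markers stayed at or under 0.661 FPKM and endothelial markers at or under 0.303 FPKM in every library. Summed fibroblast markers reached 8.37 and 6.68 FPKM in the 5637 libraries with sh-LNMAT1, from COL1A1, and 0.452 FPKM at most elsewhere.

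The members differed widely in level. Summed over the 45 genes, they came in UM-UC-3 to 1151 FPKM (sh-NC), 270.9 FPKM (#1) and 1369.6 FPKM (#2). In the library labelled 5637 sh-NC the sum was 130.6 FPKM, and in the other 5637 libraries it was 243.1 FPKM (#1) and 166.0 FPKM (#2). IFI6, ISG15 and DDX58 had the highest means. Without these 3, the sums were 583, 177 and 613 FPKM in UM-UC-3 and 93.5, 204 and 136 FPKM under the 5637 label, in the same order of libraries. A level of at least 1 FPKM was reached by 40, 31 and 42 members in UM-UC-3 and by 27, 35 and 29 under the 5637 label.

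**Figure D1:**
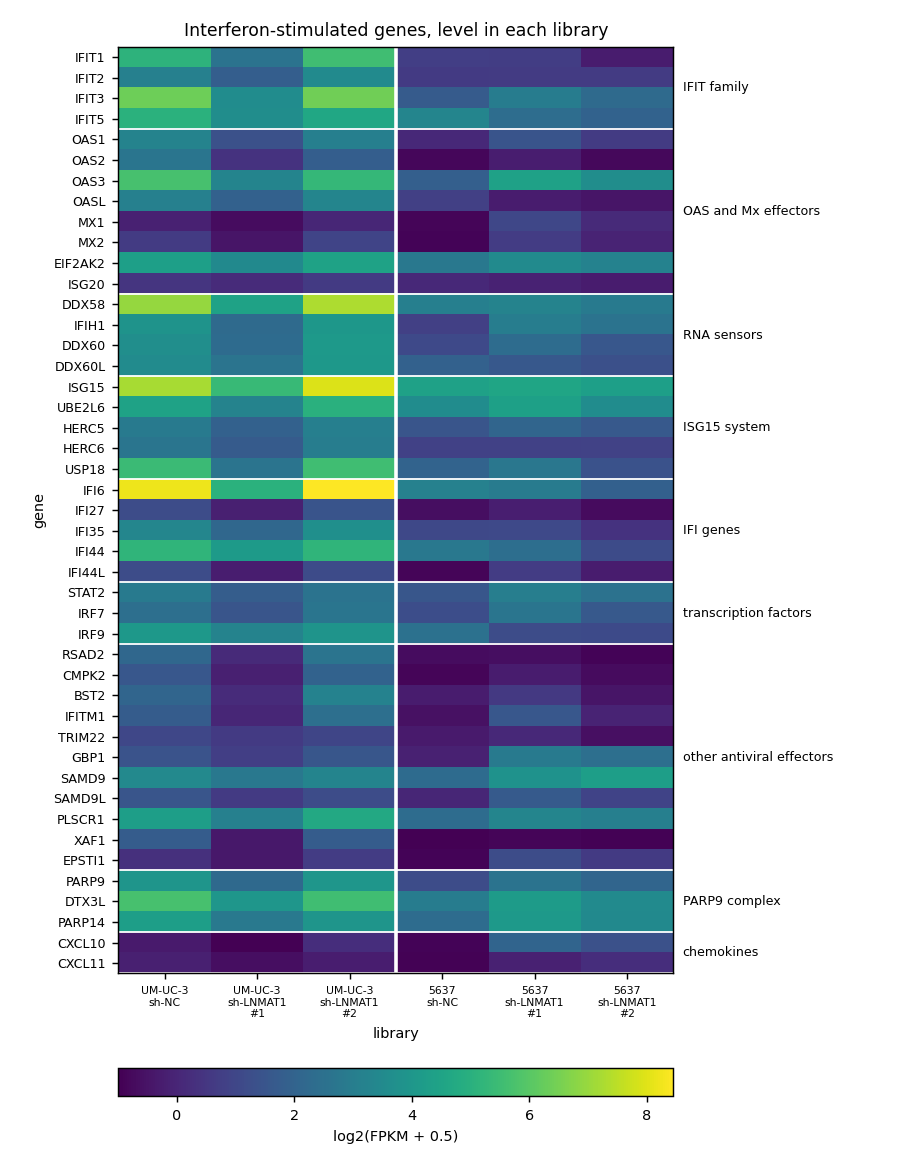
Level of the 45 interferon-stimulated genes, as log2(FPKM + 0.5) in colour, with 1 row per gene grouped by role and 1 column per library. The UM-UC-3 column with sh-LNMAT1#1 is darker than its neighbours, with a summed level of 270.9 FPKM between sums of 1151 and 1369.6 FPKM, and the column labelled 5637 sh-NC has the lowest sum, 130.6 FPKM.

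Changes were taken as differences of log2(FPKM + 0.5), which understates those of low genes. A gene was kept when its mean over the 6 libraries was at least 1 FPKM, which left 12717 genes and 37 of the 45 members. The other 8, IFI27, IFI44L, MX1, MX2, ISG20, EPSTI1, CXCL11 and TRIM22, ranged from 0.0205 FPKM, for CXCL11 in the library labelled 5637 sh-NC, to 2.27 FPKM, for IFI27 in UM-UC-3 sh-LNMAT1#2. CXCL10 passed this filter only through the 5637 libraries with sh-LNMAT1, at 3.64 and 2.02 FPKM, and was at 0.667 FPKM or less elsewhere. Where CXCL10 is called higher in those libraries, the call is not independent of the filter. XAF1, CMPK2, RSAD2, OAS2 and BST2 passed the filter only through UM-UC-3 sh-NC and sh-LNMAT1#2. They were under 1 FPKM in every other library. Where they are counted as lower with sh-LNMAT1#1 in UM-UC-3, the count is not independent of the filter either. A member was counted as lower or higher when it differed at least 2-fold from sh-NC.

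The first question was how the members stood with each hairpin against LNMAT1 in UM-UC-3. There the epithelial markers were under 1 FPKM in the control as in both hairpin libraries. These markers cannot tell the UM-UC-3 libraries from each other. With sh-LNMAT1#1, 27 of the 37 kept members were at least 2-fold lower than with sh-NC and 0 were higher, where 4.98% of all genes kept were lower and 5.17% higher. All 37 were below 0, from -3.18 to -0.65 with a median of -1.41 on the log2 scale, beside a median of 0.00 over all genes kept. Without the filter, 30 of all 45 members were at least 2-fold lower, and 45 of 45 lay below 0. With sh-LNMAT1#2, 0 members were at least 2-fold lower and 1, BST2, was higher, where 1.33% of all genes were lower and 1.86% higher. Of the 37, 11 were below 0 and 26 above, with a median of 0.19 beside 0.00 over all genes. The members thus stood apart with 1 hairpin and not with the other, in the same line.

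The hairpins were then set against each other, a contrast chosen after values were seen. Relative to sh-LNMAT1#1, 31 of 37 kept members were at least 2-fold higher with sh-LNMAT1#2 and 0 were lower, where 3.94% of all genes were higher and 4.29% lower, and the median difference was 1.62 on the log2 scale. The sh-LNMAT1#1 library had the lowest of the 3 UM-UC-3 values in all 37 kept members and in all 45 members. The highest was the sh-LNMAT1#2 library in 26 and sh-NC in 11. Both comparisons with sh-NC share that library, and the direct contrast of the hairpins does not use it.

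**Figure D2:**
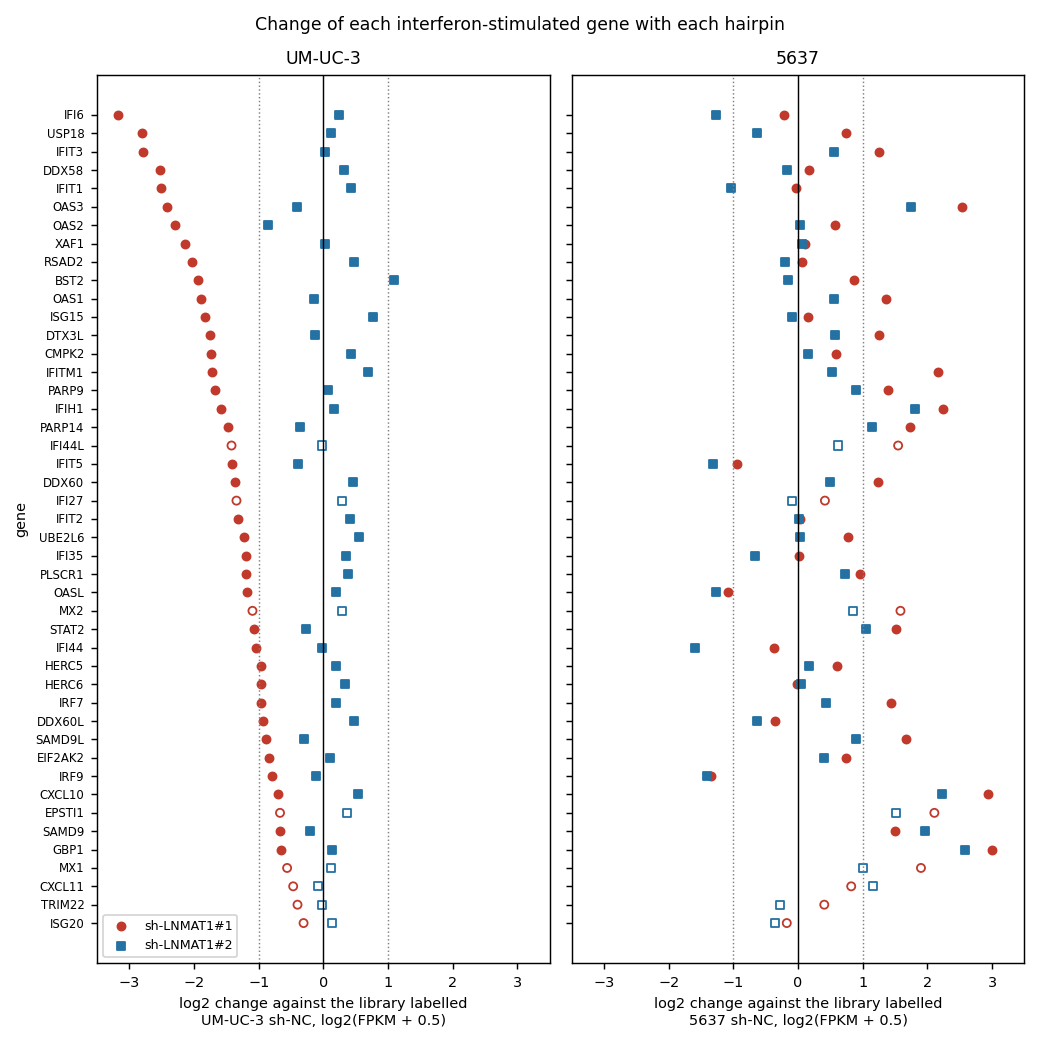
Log2 change of each interferon-stimulated gene against the library labelled sh-NC of its line, with UM-UC-3 at left and 5637 at right, circles for sh-LNMAT1#1, squares for sh-LNMAT1#2, and open symbols for the 8 members under the filter. In UM-UC-3 every circle lies left of 0, down to -3.18 for IFI6, and the squares scatter about 0, while in 5637 most circles lie right of the square of the same gene.

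The IFIT family, RNA-binding proteins encoded side by side on chromosome 10, had 4 of 4 members at least 2-fold lower with sh-LNMAT1#1 in UM-UC-3. IFIT1, which binds viral RNA that lacks the host cap marks (ENSG00000185745, chr10:89392546-89406486, plus strand), was at 34.0 FPKM (sh-NC), 5.53 FPKM (#1) and 46.1 FPKM (#2). IFIT3, which binds and stabilises IFIT1 (chr10:89327894-89340971), was at 82.2 FPKM (sh-NC), 11.5 FPKM (#1) and 83.4 FPKM (#2). In both genes the sh-LNMAT1#2 library was level with or above the control while the sh-LNMAT1#1 library stood apart. On the log2 scale IFIT1 changed by -2.52 (#1) and 0.43 (#2), and IFIT3 by -2.79 (#1) and 0.02 (#2). IFIT2, another IFIT protein that binds RNA, was at 8.23 FPKM (sh-NC), 3.01 FPKM (#1) and 11.1 FPKM (#2). IFIT5, which recognises triphosphate ends of RNA, was at 32.1 FPKM (sh-NC), 11.8 FPKM (#1) and 24.4 FPKM (#2), and was the 1 member of the family under its control with both hairpins, by -1.41 (#1) and -0.39 (#2) on the log2 scale.

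Of the OAS, Mx and related effectors, 4 of 5 kept members were at least 2-fold lower with sh-LNMAT1#1. The OAS enzymes make a small nucleotide messenger from ATP when they bind double-stranded RNA, and lie next to each other on chromosome 12. OAS3, the largest of them (chr12:112938352-112973249), was at 51.3 FPKM (sh-NC), 9.19 FPKM (#1) and 38.7 FPKM (#2). OAS1 was at 8.87 FPKM (sh-NC), 2.02 FPKM (#1) and 8.01 FPKM (#2). OAS2 was at 5.90 FPKM (sh-NC), 0.805 FPKM (#1) and 3.05 FPKM (#2), and it had the lowest change of any kept member with sh-LNMAT1#2, -0.85 on the log2 scale, short of 2-fold. OASL, a relative without that enzyme activity, was at 8.14 FPKM (sh-NC), 3.32 FPKM (#1) and 9.38 FPKM (#2). EIF2AK2, the kinase PKR that halts translation, was short of 2-fold with either hairpin, changing by -0.85 (#1) and 0.10 (#2). MX1 and MX2, the Mx antiviral GTPases, were under the filter, and their highest UM-UC-3 values were 0.502 and 1.40 FPKM, both with sh-LNMAT1#2.

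Of the cytoplasmic RNA sensors, 3 of 4 were at least 2-fold lower with sh-LNMAT1#1. DDX58, which encodes RIG-I (chr9:32455705-32526324), was at 125 FPKM (sh-NC), 21.4 FPKM (#1) and 157 FPKM (#2). IFIH1, which encodes MDA5 (chr2:162267079-162318703), was at 13.8 FPKM (sh-NC), 4.28 FPKM (#1) and 15.5 FPKM (#2). Among the UM-UC-3 libraries, both sensors were therefore low in the same single one. In the library labelled 5637 sh-NC they were lower still, at 7.93 and 1.22 FPKM. DDX60, a helicase that promotes RIG-I signalling, was at 12.2 FPKM (sh-NC), 4.44 FPKM (#1) and 16.9 FPKM (#2), and its relative DDX60L changed by -0.94 (#1) and 0.47 (#2) on the log2 scale. These 2 genes have close relatives, as do SAMD9, SAMD9L, GBP1, IFITM1 and USP18, and how fragments that fit more than 1 gene were counted is not given in the sources used here, so their values are uncertain.

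The ISG15 system attaches a ubiquitin-like protein to other proteins, and 3 of its 5 genes were at least 2-fold lower. ISG15, the modifier itself (chr1:1001138-1014541), was at 146 FPKM (sh-NC), 40.6 FPKM (#1) and 249.5 FPKM (#2). UBE2L6, its conjugating enzyme, was at 21.6 FPKM (sh-NC), 8.88 FPKM (#1) and 31.8 FPKM (#2). USP18, which removes ISG15 and restrains the interferon receptor, was at 43.2 FPKM (sh-NC), 5.73 FPKM (#1) and 46.7 FPKM (#2). USP18 changed the second most of the members with sh-LNMAT1#1, by -2.81 on the log2 scale, against 0.11 with sh-LNMAT1#2. The ligases HERC5 and HERC6 were just short of 2-fold, at -0.96 and -0.96 with sh-LNMAT1#1.

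IFI6 stood out. This small membrane protein of mitochondria and the endoplasmic reticulum, linked to cell survival (ENSG00000126709, chr1:27666061-27672218, minus strand), was the member with the highest level. IFI6 was at 296 FPKM (sh-NC), 32.3 FPKM (#1) and 349.9 FPKM (#2), a value 9.04-fold lower with sh-LNMAT1#1 on the scale used, and it ranked 13 from the lowest of 12717 genes in that comparison. IFI44, a cytosolic antiviral protein, was at 36.1 FPKM (sh-NC), 17.3 FPKM (#1) and 35.5 FPKM (#2), and IFI44L, its neighbour, was under the filter. IFI35, a partner of the interferon-induced protein NMI, was at 9.68 FPKM (sh-NC), 3.95 FPKM (#1) and 12.5 FPKM (#2). All 3 kept IFI genes were at least 2-fold lower with sh-LNMAT1#1, and none was with sh-LNMAT1#2.

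The transcription factors among the members changed less. STAT2, which joins IRF9 in the complex named above, was at 6.72 FPKM (sh-NC), 2.92 FPKM (#1) and 5.52 FPKM (#2). IRF9, its DNA-binding part, was at 15.8 FPKM (sh-NC), 8.92 FPKM (#1) and 14.5 FPKM (#2). IRF7, which drives further interferon transcription, was at 4.99 FPKM (sh-NC), 2.33 FPKM (#1) and 5.80 FPKM (#2). Only STAT2 passed 2-fold with sh-LNMAT1#1, at -1.08, beside -0.96 for IRF7 and -0.80 for IRF9.

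PARP9, DTX3L and PARP14 act in ADP-ribosylation and ubiquitination, PARP9 and DTX3L as a complex, and 3 of 3 were at least 2-fold lower with sh-LNMAT1#1. DTX3L, the ubiquitin ligase, was at 51.6 FPKM (sh-NC), 14.9 FPKM (#1) and 47.1 FPKM (#2). PARP9 was at 14.6 FPKM (sh-NC), 4.25 FPKM (#1) and 15.3 FPKM (#2). PARP14, an ADP-ribosyltransferase, was at 18.9 FPKM (sh-NC), 6.49 FPKM (#1) and 14.7 FPKM (#2). PARP9 and DTX3L overlap by 340 bases on opposite strands, and RSAD2 and CMPK2 by 830 bases. Whether the counting used strand is not given in the sources used here, so part of these values may belong to the partner gene.

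Of the other antiviral effectors, 6 of 9 kept members were at least 2-fold lower with sh-LNMAT1#1. RSAD2, viperin, which makes a chain-terminating nucleotide, was at 3.99 FPKM (sh-NC), 0.599 FPKM (#1) and 5.70 FPKM (#2). CMPK2, a mitochondrial nucleotide kinase beside it, was at 2.46 FPKM (sh-NC), 0.391 FPKM (#1) and 3.47 FPKM (#2). XAF1, an antagonist of the inhibitor of apoptosis XIAP, was at 2.85 FPKM (sh-NC), 0.263 FPKM (#1) and 2.90 FPKM (#2). BST2, tetherin, which holds budding virus at the cell surface, was at 3.77 FPKM (sh-NC), 0.610 FPKM (#1) and 8.60 FPKM (#2). BST2 was the 1 member past 2-fold with both hairpins and in opposite directions, by -1.94 (#1) and 1.09 (#2). IFITM1, which blocks fusion of virus with the cell, was at 2.85 FPKM (sh-NC), 0.520 FPKM (#1) and 4.91 FPKM (#2). PLSCR1, a phospholipid scramblase, was at 19.4 FPKM (sh-NC), 8.21 FPKM (#1) and 25.3 FPKM (#2). The remaining 3 did not reach 2-fold. SAMD9, a cytosolic restriction factor, was at 10.5 FPKM (sh-NC), 6.40 FPKM (#1) and 9.04 FPKM (#2), and its neighbour and relative SAMD9L at 2.34 FPKM (sh-NC), 1.03 FPKM (#1) and 1.80 FPKM (#2). GBP1, a guanylate-binding GTPase known as a target of interferon gamma, was at 2.14 FPKM (sh-NC), 1.18 FPKM (#1) and 2.41 FPKM (#2).

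CXCL10, a chemokine that draws T cells through the receptor CXCR3, was near the floor in UM-UC-3, with 9 fragments (sh-NC), 0 (#1) and 18 (#2). For the count of 0 a floor of 3 fragments, the upper end of a 1-sided 95% limit, covers counting error only. CXCL11, a second ligand of that receptor, was under the filter.

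**Figure D3:**
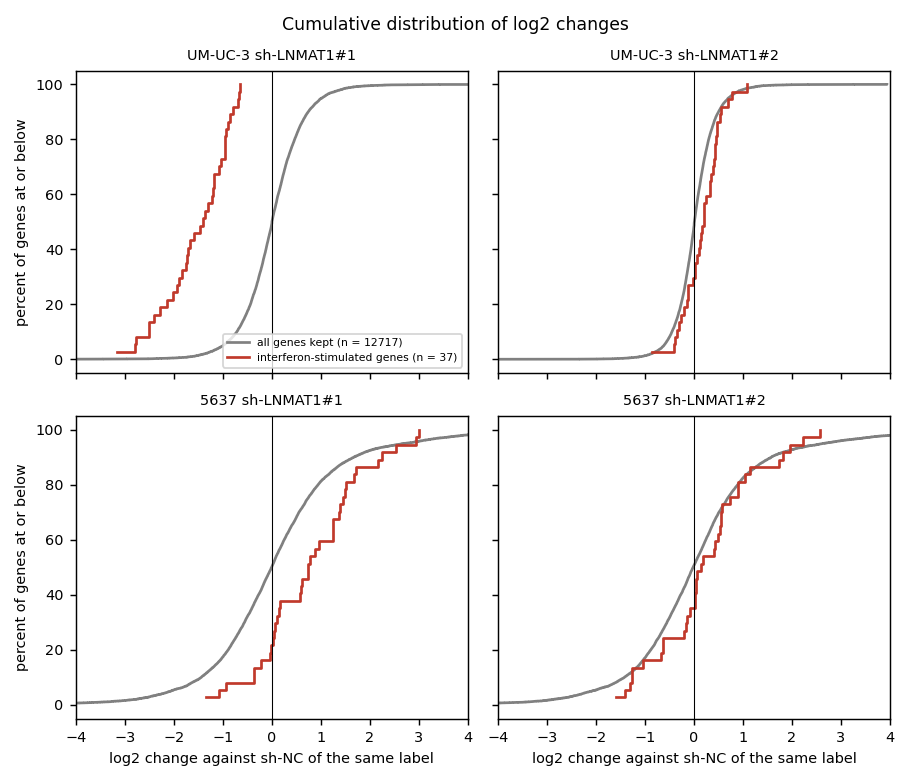
Cumulative share of genes, in percent, at or below each log2 change against the sh-NC library of the same label, for the 37 kept interferon-stimulated genes and for all 12717 genes kept, 1 panel per library. With UM-UC-3 sh-LNMAT1#1 the members' curve lies left of the curve of all genes, with medians of -1.41 and 0.00, and with UM-UC-3 sh-LNMAT1#2 it lies slightly right, with a median of 0.19.

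The rest of the pathway was described from 38 further genes, of which 23 were kept. With sh-LNMAT1#1 in UM-UC-3, 3 were at least 2-fold lower and 1 higher, and with sh-LNMAT1#2 there were 0 in either direction. Over all genes kept, 4.98% were lower and 5.17% higher with sh-LNMAT1#1, and 1.33% and 1.86% with sh-LNMAT1#2. IRF1, a transcription factor of the interferon gamma response, was at 6.69 FPKM (sh-NC), 1.69 FPKM (#1) and 6.64 FPKM (#2). IKBKE, a kinase that activates IRF3 and IRF7, was at 1.42 FPKM (sh-NC), 0.288 FPKM (#1) and 1.26 FPKM (#2). Both were among the lower genes, and SOCS3, a feedback inhibitor of JAK kinases, was the higher one, at 5.58 FPKM (sh-NC), 11.9 FPKM (#1) and 8.10 FPKM (#2). The kept receptors and the kinases JAK1, JAK2 and TYK2 stayed within 2-fold, among them IFNAR1 at 12.2 FPKM (sh-NC), 10.0 FPKM (#1) and 11.2 FPKM (#2), and JAK1 at 45.3 FPKM (sh-NC), 59.0 FPKM (#1) and 37.0 FPKM (#2). None of 9 ligand genes passed the filter. IFNB1, interferon beta, had 16 fragments with sh-NC (exact 95% Poisson interval 9.15 to 26.0), 5 with #1 (1.62 to 11.7) and 45 with #2 (32.8 to 60.2). The order of the 3 libraries was that of the members' sums, and the intervals of sh-NC and sh-LNMAT1#1 overlapped, while that of sh-LNMAT1#2 overlapped neither. These intervals cover counting error only.

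Of 24 further interferon-induced genes outside the members, 19 were kept. With sh-LNMAT1#1, 8 were lower by 2-fold or more and 0 higher, with a median of -0.81. With sh-LNMAT1#2, 0 were lower and 1, CD274, was higher. Over all genes kept, 4.98% were lower and 5.17% higher with sh-LNMAT1#1, and 1.33% and 1.86% with sh-LNMAT1#2. IFITM3, which blocks virus entry from endosomes, was at 181 FPKM (sh-NC), 53.7 FPKM (#1) and 199 FPKM (#2). HELZ2, a helicase and coactivator, was at 49.8 FPKM (sh-NC), 16.5 FPKM (#1) and 49.8 FPKM (#2). LGALS3BP, a secreted glycoprotein, was at 12.9 FPKM (sh-NC), 3.56 FPKM (#1) and 15.8 FPKM (#2). LY6E stayed close together, at 19.1 FPKM (sh-NC), 17.6 FPKM (#1) and 22.6 FPKM (#2), so the low values with sh-LNMAT1#1 did not extend to all genes of this list.

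In the promoters, members with and without the motif were both low with sh-LNMAT1#1. Of 22 kept members with it, 16 were at least 2-fold lower, with a median of -1.53, and of 10 without it, 7 were, with a median of -1.21. The difference between them was not tested.

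The second question was the same for 5637, where the control is in doubt. Against the library labelled 5637 sh-NC, 2 members were at least 2-fold lower with sh-LNMAT1#1 and 15 higher, where 17.5% of all genes were lower and 18.7% higher. With sh-LNMAT1#2, 6 were lower and 7 higher, where 17.2% of all genes were lower and 17.5% higher. The medians were 0.75 and 0.15. For the members with sh-LNMAT1#2, both shares lay near those of all genes. With UM-UC-3 sh-NC in its place, a control chosen after seeing the data that differs in line as well, 25 members were lower and 2 higher with sh-LNMAT1#1, where 15.8% of genes were lower and 16.8% higher. With sh-LNMAT1#2 the numbers were 29 lower and 2 higher, where 15.9% were lower and 16.0% higher. With sh-LNMAT1#1 the direction of the set in 5637 thus turned with the control. With sh-LNMAT1#2 the set was near all genes against the library labelled 5637 sh-NC and lower against UM-UC-3 sh-NC. No direction of knockdown can be read from the set in 5637. In the library labelled 5637 sh-NC, 14 kept members were at least 2-fold lower than in UM-UC-3 sh-LNMAT1#1, the lowest UM-UC-3 library, and 0 were higher, where 0.566% of all genes were lower and 0.432% higher. That library was thus lower in these 14 genes than every UM-UC-3 library. In it, 35 of 37 kept members were also at least 2-fold lower than in UM-UC-3 sh-NC, and 0 were higher. Of all genes, 5.32% were lower and 4.62% higher in that comparison. Over all genes, the library labelled 5637 sh-NC thus stood nearer to UM-UC-3 sh-LNMAT1#1 than to UM-UC-3 sh-NC.

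The direct contrast of the hairpins in 5637 does not use the control. Relative to sh-LNMAT1#1, 7 kept members were at least 2-fold lower with sh-LNMAT1#2 and 0 were higher, where 0.865% of all genes were lower and 1.11% higher. In 35 of 37 kept members the sh-LNMAT1#1 library was the higher one, the exceptions being HERC6 and SAMD9, and the median difference was -0.49. The hairpin with the higher members was thus sh-LNMAT1#2 in UM-UC-3 and sh-LNMAT1#1 in 5637. This contrast too was chosen after values were seen, and it has no replicate check in either line.

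The 7 members lower with sh-LNMAT1#2 in that contrast were IFI6, IFIT1, IFI44, USP18, IRF7, BST2 and IFITM1. Under the 5637 label IFI6 was at 8.41 FPKM (control), 7.16 FPKM (#1) and 3.20 FPKM (#2). IFIT1 was at 1.18 FPKM (control), 1.14 FPKM (#1) and 0.318 FPKM (#2), and IFI44 at 6.32 FPKM (control), 4.78 FPKM (#1) and 1.76 FPKM (#2). All 3 were far below their UM-UC-3 control levels in each of these libraries. USP18 was at 3.52 FPKM (control), 6.23 FPKM (#1) and 2.08 FPKM (#2), and IRF7 at 1.83 FPKM (control), 5.84 FPKM (#1) and 2.63 FPKM (#2). BST2 was at 0.317 FPKM (control), 0.995 FPKM (#1) and 0.234 FPKM (#2), and IFITM1 at 0.165 FPKM (control), 2.50 FPKM (#1) and 0.454 FPKM (#2). In each of these 4 genes the sh-LNMAT1#1 library was the highest of the 3.

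The members at least 2-fold above the library labelled 5637 sh-NC with both hairpins were IFIH1, OAS3, STAT2, SAMD9, PARP14, CXCL10 and GBP1. GBP1 was at 0.412 FPKM (control), 6.82 FPKM (#1) and 4.95 FPKM (#2). CXCL10 had 1 fragment (control), 89 (#1) and 46 (#2), so its change of 2.94 (#1) and 2.23 (#2) on the log2 scale depends on the constant added. OAS3 was at 3.17 FPKM (control), 20.8 FPKM (#1) and 11.8 FPKM (#2). In each of these 3 genes both hairpin libraries lay above the control, and sh-LNMAT1#1 gave the higher value. IFIH1 was at 1.22 FPKM (control), 7.63 FPKM (#1) and 5.52 FPKM (#2), and STAT2 at 2.40 FPKM (control), 7.74 FPKM (#1) and 5.49 FPKM (#2). SAMD9 was at 4.50 FPKM (control), 13.6 FPKM (#1) and 19.1 FPKM (#2), and PARP14 at 4.60 FPKM (control), 16.4 FPKM (#1) and 10.8 FPKM (#2). SAMD9 was the exception of this group, with its highest level in the sh-LNMAT1#2 library.

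A further 8 members passed 2-fold upwards with sh-LNMAT1#1 alone, namely IFIT3, DDX60, OAS1, IRF7, SAMD9L, PARP9, DTX3L and IFITM1. IFIT3 was at 2.79 FPKM (control), 7.34 FPKM (#1) and 4.32 FPKM (#2), and DTX3L at 7.24 FPKM (control), 17.9 FPKM (#1) and 11.0 FPKM (#2). OAS1 was at 0.567 FPKM (control), 2.24 FPKM (#1) and 1.07 FPKM (#2), and DDX60 at 1.63 FPKM (control), 4.52 FPKM (#1) and 2.49 FPKM (#2). SAMD9L was at 0.507 FPKM (control), 2.72 FPKM (#1) and 1.37 FPKM (#2), and PARP9 at 1.79 FPKM (control), 5.50 FPKM (#1) and 3.76 FPKM (#2). With sh-LNMAT1#2 the changes of these 8 ran from 0.43 for IRF7 to 0.90 for SAMD9L, all short of 2-fold.

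Below the control by 2-fold or more were OASL and IRF9 with either hairpin, and IFIT1, IFIT5, IFI6 and IFI44 with sh-LNMAT1#2. IRF9 was at 5.30 FPKM (control), 1.77 FPKM (#1) and 1.69 FPKM (#2). OASL was at 1.24 FPKM (control), 0.324 FPKM (#1) and 0.226 FPKM (#2), and IFIT5 at 9.37 FPKM (control), 4.64 FPKM (#1) and 3.46 FPKM (#2). IRF9 and OASL thus ran against STAT2, the partner of IRF9, in the same libraries.

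The other kept members with values given for UM-UC-3 stayed within 2-fold here. ISG15 was at 20.8 FPKM (control), 23.2 FPKM (#1) and 19.5 FPKM (#2). DDX58 was at 7.93 FPKM (control), 8.94 FPKM (#1) and 6.98 FPKM (#2), and UBE2L6 at 11.5 FPKM (control), 20.1 FPKM (#1) and 11.7 FPKM (#2). PLSCR1 was at 4.55 FPKM (control), 9.32 FPKM (#1) and 7.88 FPKM (#2), and IFI35 at 1.58 FPKM (control), 1.61 FPKM (#1) and 0.809 FPKM (#2). In these 5 genes too the sh-LNMAT1#1 library was the highest of the 3. IFIT2 was at 1.04 FPKM (control), 1.07 FPKM (#1) and 1.05 FPKM (#2). OAS2 was at 0.0631 FPKM (control), 0.340 FPKM (#1) and 0.0780 FPKM (#2), and XAF1 at 0.00335 FPKM (control), 0.0434 FPKM (#1) and 0.0233 FPKM (#2). RSAD2 was at 0.119 FPKM (control), 0.145 FPKM (#1) and 0.0368 FPKM (#2), and CMPK2 at 0.0450 FPKM (control), 0.321 FPKM (#1) and 0.104 FPKM (#2). These 4 genes had their highest level with sh-LNMAT1#1 too. HERC5, HERC6, DDX60L and EIF2AK2 changed by between -0.63, for DDX60L with sh-LNMAT1#2, and 0.75, for EIF2AK2 with sh-LNMAT1#1.

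Of the 23 pathway genes kept, 2 were at least 2-fold lower and 7 higher with sh-LNMAT1#1 in 5637. With sh-LNMAT1#2, 1 was lower and 6 were higher. Over all genes kept, 17.5% were lower and 18.7% higher with sh-LNMAT1#1, and 17.2% and 17.5% with sh-LNMAT1#2. IFNLR1, the receptor chain particular to interferon lambda, was under the filter and is in none of these counts. It was at 1.66 and 2.06 FPKM in the 5637 libraries with sh-LNMAT1 and at 0.00668 FPKM or less in the other 4 libraries. Of the 19 further interferon-induced genes kept, 0 were lower and 6 higher with sh-LNMAT1#1, and 1 lower and 5 higher with sh-LNMAT1#2. The shares of all genes beside them are the same. IFNB1 had 2 fragments (control), 4 (#1) and 2 (#2), too few to order the libraries.

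Over libraries, 3 tests were made. In the first, the 4 libraries with sh-LNMAT1 were compared with the 2 labelled sh-NC, with the line as a covariate, by limma. It called 0 members and 0 of 12717 genes at an adjusted p under 0.05, which is 0.0% in either direction. At an unadjusted p under 0.05 there were 2 members, IFIT5 and IRF9, both lower, and 811 genes. For IFIT5 the pooled difference was -1.01 ± 0.35 on the log2 scale (SE; adjusted p = 0.569). Without UM-UC-3 sh-NC, the test called 1 member lower, IRF9, and 3 higher, SAMD9, GBP1 and CXCL10, where 15.1% of all genes were lower and 15.9% higher, shares above those of the members, and that fit rests on the library labelled 5637 sh-NC as its control. This test pools hairpins that ran apart in UM-UC-3, and a p above the threshold does not show that the members were level.

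In the second test, the 2 hairpin libraries of 5637 were compared with the 2 of UM-UC-3, with neither control. The hairpins stand in for replicates here, so the p-values measure the spread between these libraries only. Of the 37 kept members, 10 were lower in 5637 and 3 higher, where 19.1% of all genes were lower and 18.5% higher. Of the 37, 30 had a difference below 0, and the median was -1.42 beside -0.05 over all genes. The lower members were IFI6, IFIT1, OASL, IFI44, IRF9, IFI35, IFIT2, IFIT5, DDX60L and HERC6. IFI6 differed by -4.33 ± 1.10 (SE; adjusted p = 0.0313) on the log2 scale. IFIT1 differed by -3.85 ± 0.97 (SE; adjusted p = 0.0300), and OASL by -2.99 ± 0.47 (SE; adjusted p = 0.00696). IRF9, with -2.42 ± 0.28 (SE; adjusted p = 0.00259), had the smallest adjusted p of the members. IFI44 differed by -2.87 ± 0.52 (SE; adjusted p = 0.0110), and IFIT5 by -1.96 ± 0.38 (SE; adjusted p = 0.0137). The other 4 lay between -2.19 and -1.51. The higher members were CXCL10, at 2.08 ± 0.48 (SE; adjusted p = 0.0231), GBP1, at 1.51 ± 0.33 (SE; adjusted p = 0.0205), and SAMD9, at 1.03 ± 0.27 (SE; adjusted p = 0.0349). CXCL10 passed the filter only through these 5637 libraries, so its call is not independent of the filter. The UM-UC-3 values of IFIT1, OASL, IFIT2, IFI35 and HERC6 carried their means over the 6 libraries past the filter. The 5637 values did the same for GBP1. The calls of these genes are not independent of the filter either. Without a filter, 1 member was called lower and 0 higher. The 2 UM-UC-3 values of IFI6, 32.3 and 349.9 FPKM, lay far apart. DDX58, whose values there were 21.4 and 157 FPKM, missed the threshold at -2.80 ± 0.89 (SE; adjusted p = 0.0582).

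The calls between the lines rested on few libraries. Without UM-UC-3 sh-LNMAT1#1, 27 members were lower in 5637 and 0 higher, where 19.3% of all genes were lower and 17.6% higher. Without UM-UC-3 sh-LNMAT1#2, 12 were lower and 3 higher, where 20.2% were lower and 20.4% higher. Without 5637 sh-LNMAT1#1, 0 members were called, where 3.67% of genes were lower and 6.14% higher, and without 5637 sh-LNMAT1#2, 0 were called, where 3.65% were lower and 6.23% higher. At an unadjusted p under 0.05 there were 7 lower and 1 higher member in the former case, and 4 lower and 2 higher in the latter. With no hairpin library left out, 19.1% of all genes were lower in 5637 and 18.5% higher. Of the 23 pathway genes kept, 2 were then lower, JAK2 among them, and 4 higher, TYK2, SOCS1, IRF3 and IKBKE. Among the 19 further genes, SP100 was lower and TNFSF10 and GBP2 were higher. The epithelial markers, which sum to 353 and 517 FPKM in these 5637 libraries and to 0.845 and 1.01 FPKM in the UM-UC-3 libraries, differ in the same contrast, and their part in these differences was not tested.

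In the third test, added after values were seen, limma compared the change with sh-LNMAT1 under the 5637 label with that in UM-UC-3, as a term for line by knockdown over all 6 libraries. Of the 37 kept members, 2 were called, GBP1 and SAMD9, both with the more positive change in 5637, where 9.99% of all genes were called in that direction and 8.79% in the other. GBP1 differed by 3.05 ± 0.59 (SE; adjusted p = 0.0247) on the log2 scale, and SAMD9 by 2.17 ± 0.48 (adjusted p = 0.0349). The members' share was thus below that of all genes, and the test rests on 1 control library per line, with line and hairpin not told apart in that of 5637. Without 5637 sh-LNMAT1#1 or without 5637 sh-LNMAT1#2, 0 members were called. Without UM-UC-3 sh-LNMAT1#1, 1 was higher, GBP1, and without UM-UC-3 sh-LNMAT1#2, 18 were higher, where 2095 of 12717 genes were.

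**Figure D4:**
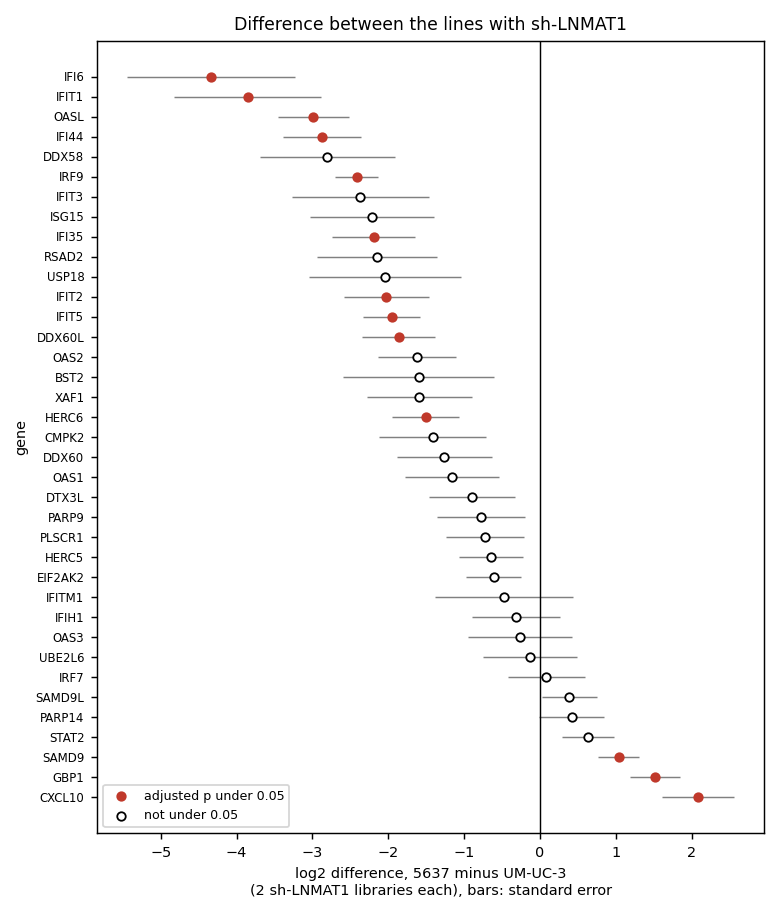
Log2 difference of each of the 37 kept interferon-stimulated genes between the 2 sh-LNMAT1 libraries of 5637 and the 2 of UM-UC-3, with bars of 1 standard error and filled points where limma's adjusted p was under 0.05. The 10 filled points at left run from IFI6, at -4.33, to HERC6, at -1.51, and the 3 at right are SAMD9, GBP1 and CXCL10, the last at 2.08.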

How the data were processed

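RNA from UM-UC-3 and 5637 cells, 1 library for each of 3 hairpins in each line, was prepared with a stranded mRNA kit per the labels. The authors deposited FPKM values per gene in 1 table of 50869 rows, of which 1 without values was left out. The submitters' processing notes name HISAT2 and hg38, and the counting program and annotation are not given in the sources used here. GENCODE release 29 holds 50110 of the identifiers, 47483 of them at the same position. All 6 columns were assigned by name from the labels.

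Each library's depth came from genes of 1 exon, where at least 99.0% of values of at most 20 fragments were whole within 0.02, and genes of several exons gave no whole fragments, so no count-based test was run. Intervals and floors of 3 fragments cover counting error only. Changes were taken on the scale log2(FPKM + 0.5), for genes averaging at least 1 FPKM across libraries. Single libraries were compared with no test. The pooled and the line comparison used limma 3.58.1 in R 4.3.3 (eBayes with a trend, Benjamini-Hochberg over all genes kept, adjusted p under 0.05) on 3 and 2 residual degrees of freedom. A limma term for line by knockdown, on 2, was added after seeing the data, as were fits of 1 hairpin with the line as a block. Python 3.11.15, numpy 2.4.6 and pandas 2.3.3 did the rest. No library was repeated, so p-values measure only the spread between these libraries, which may be technical. The tests were tried on simulated data with known changes.

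The 45 members, the lists and the tests were chosen with earlier results of these data known. Values in all libraries were given for each kept member at least 2-fold from the sh-NC of its label in 1 or more of the 4 comparisons and for STAT2, IRF7 and IRF9, and by range for the others. From the other lists, examples were picked with values in view, and some genes of those lists are not reported here by name. The alternatives tried were scaling to the 75th percentile, a pseudocount of 0.1 or 1, either no filter or 5 FPKM as the filter, 1.5-fold and 4-fold limits, limma without a trend or without the line, a block for the hairpin number, all 3 UM-UC-3 libraries in the line comparison, and leaving out each library in turn. UM-UC-3 sh-NC as the control of the 5637 hairpins was added after seeing the data. Promoters were the RefSeq windows of GRCh38.p14.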

Additional observations from a re-analysis of the deposited data

Results flagged for a closer look

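In 8 of the 37 kept members both hairpins gave a value under the control in UM-UC-3 and over the library labelled 5637 sh-NC in 5637. How many of all 12717 genes kept showed this pattern was not counted, so it cannot be read as particular to the members. The mean log2 change in 5637 minus that in UM-UC-3 was 3.55 for OAS3, 2.35 for PARP14, 2.17 for SAMD9, 1.97 for OAS1, 1.95 for STAT2, 1.88 for SAMD9L, 1.88 for OAS2 and 1.86 for DTX3L. By limma's term for line by knockdown, a test added after seeing the data, SAMD9 passed (adjusted p = 0.0349) and the other 7 did not, with adjusted p from 0.0778 for STAT2 to 0.241 for OAS1. GBP1 passed too, with a difference of 3.05 (adjusted p = 0.0247). All 9 values rest on the library labelled 5637 sh-NC, which lacks the epithelial markers of the other 5637 libraries. Line and hairpin cannot be told apart in it.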

How the results depend on the processing

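Each member's own change was scored as within its counting error in 680 of 680 recomputed values, and no change of at least 2-fold turned direction. These checks could hardly fail, so no stability is read from them. A filter leaves a gene's own change as it was. A pseudocount cannot turn its direction, and the scaling shifts were too small to turn a change of 2-fold. In members of few fragments the counting error was wide. XAF1 and CXCL10 moved with the pseudocount of 0.1 and were still scored as the same. Changes short of 2-fold were not checked for direction. Of 151 recomputed line differences, 107 kept their call, 44 lost it and 0 turned. Of 22 recomputed medians 5 moved by more than 0.1, and of 60 recomputed counts at the fold limit 16 moved by more than 1.5 times. With a pseudocount of 0.1 the medians were -1.53 for sh-LNMAT1#1 in UM-UC-3, and 1.02 and 0.25 for the 2 hairpins in 5637. With a pseudocount of 1, 1 member was lower with sh-LNMAT1#1 in 5637. At a 4-fold limit, 9 members were lower with sh-LNMAT1#1 and 0 higher with sh-LNMAT1#2 in UM-UC-3, and in 5637, 0 were lower and 5 higher with sh-LNMAT1#1 and 0 lower and 2 higher with sh-LNMAT1#2. At a 1.5-fold limit, 1 was lower and 3 were higher with sh-LNMAT1#2 in UM-UC-3. When genes under 5 FPKM were left out, 0 were higher with sh-LNMAT1#2 in UM-UC-3, and 1 was lower and 9 were higher with sh-LNMAT1#1 in 5637. Between the lines 1 was then higher, where 929 of 6250 genes were. For single hairpins, the shares of all genes at these pseudocounts, fold limits and filters were not counted. Those members' counts therefore have no background beside them. With UM-UC-3 sh-NC as the control, chosen after seeing the data, 25 members were lower and 2 higher with sh-LNMAT1#1 in 5637, with a median of -1.77, and 29 lower and 2 higher with sh-LNMAT1#2, with a median of -2.24. Between the lines, 1 was lower and 0 higher without a filter, where 2006 and 2892 of 36964 genes were. With all 3 UM-UC-3 libraries, 15 were lower and 3 higher, where 2804 and 2599 of 12717 genes were. With the hairpin number as a replicate block, 16 were lower and 3 higher, where 2629 and 2502 of 12717 genes were. Across 12717 genes the difference between the hairpins in 1 line correlated with that in the other at 0.032, so the numbers were not taken to pair the libraries. With the line as a replicate block, either hairpin alone against the sh-NC libraries, a fit added after seeing the data, gave 0 members and 0 genes by limma, with 0 members and 151 or 445 genes at an unadjusted p under 0.05. Leaving out each library in turn gave 0 to 1 lower and 0 to 3 higher members in the pooled test, 0 to 27 lower and 0 to 3 higher between the lines, and 0 to 18 members higher for line by knockdown, where 0 were higher without a filter and 1 with that of 5 FPKM. For these moves the cause was not tested. Scaling to the 75th percentile shifted no library by more than 0.041 on the log2 scale. Depth limits the members of few fragments, among them CXCL10 and RSAD2, and 1 library per hairpin and line limits all.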
